A study of Mus musculus with 3 samples.

Results

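The 10 genes described here, Sox18, Adgrl4, Rbp7, Btnl9, Aqp7, Cd300lg, Gpihbp1, Slc9a3r2, Ptprb and Myct1, are known from capillary endothelial cells of the heart and other tissues. They were chosen by their ratios in these same data, and each was read at every probe whose platform annotation names that gene alone. This gave 15 probes for 10 of the 19533 genes on the array, with 2 probes each for Rbp7, Btnl9, Aqp7, Cd300lg and Ptprb and 1 probe each for the other genes. All 15 probes had a value in all 3 contrasts.

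Hearts of C57BL/6 mice were compared on 2-colour microarrays in 3 contrasts, drawn from 6 groups of 8 animals. Untreated mice without sepsis (Control) were set against mice given esmolol (Esm), a short-acting beta-1 adrenergic receptor blocker infused at 20 mg/kg/h through a jugular catheter. Mice injected intraperitoneally with lipopolysaccharide (LPS), a bacterial cell wall component, were compared without and with the same infusion (LPS+Esm). Mice made septic by tying off and puncturing the cecum (CLP, cecal ligature and perforation) were likewise compared without and with it (CLP+Esm). No source used here gives age, sex or time of sampling. The question was how the drug alters gene expression of the septic heart.

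Each contrast was deposited as 1 value per probe that merges 4 replicates with dye swaps. The spread between replicates is not in these values, so no difference was tested and no p-value is given. Values were read as log2 ratios of esmolol over untreated hearts, and the base of the logarithm is an assumption. "Higher" and "lower" describe the sign of that ratio, and 1.5-fold corresponds to 0.585 on the log2 scale. The CLP sample is titled with the untreated hearts first, so its sign was turned. The series' design text speaks of treated over untreated hearts without exception, so the direction of the CLP contrast is not settled, and every CLP sign below would turn if the title is not followed. Of the genes on the array, 17814 had a value in the non-septic contrast, 17733 in the LPS contrast and 17339 in the CLP contrast. The spread of all genes was widest in the LPS contrast (SD 0.28, against 0.14 non-septic and 0.16 CLP).

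Capillary endothelium is the exchange surface between blood and heart muscle, and in the heart it is equipped for the transfer of fatty acids. Its cells carry transcription factors that set vessel identity, receptors and phosphatases that govern junctions, and surface proteins and channels that capture lipoproteins and move their products. Heart tissue was measured in bulk, so fewer endothelial cells and less RNA per cell cannot be told apart. The deposited ratios hold no expression levels, and whether these genes mark capillaries in these hearts could therefore not be checked by abundance.

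In LPS hearts all 10 genes had ratios above 0 with esmolol, with a median of 1.20 (2.30-fold) and a range of 0.74 (Myct1) to 1.53 (Cd300lg). In CLP hearts, with the sign turned as titled, all 10 lay below 0, with a median of -0.52 and a range of -1.47 (Sox18) to -0.22 (Cd300lg). In non-septic hearts they lay on both sides of 0, with a median of -0.027, 4 above and 6 below. The medians of all genes in these contrasts were 0.0001, -0.0049 and 0.0010 in the same order. At 1.5-fold, 10 of 10 genes were higher in LPS hearts, where 2.06% of all genes were. In CLP hearts 4 of 10 were lower by 1.5-fold or more, where 0.133% of all genes were, and 0 were higher, where 0.819% of all genes were. In non-septic hearts 0 of 10 were higher and 0 lower by as much, beside 0.219% and 0.241% of all genes. Because the genes were chosen by these ratios, the counts for LPS and CLP hearts describe the choice and support nothing further.

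**Figure D1:**
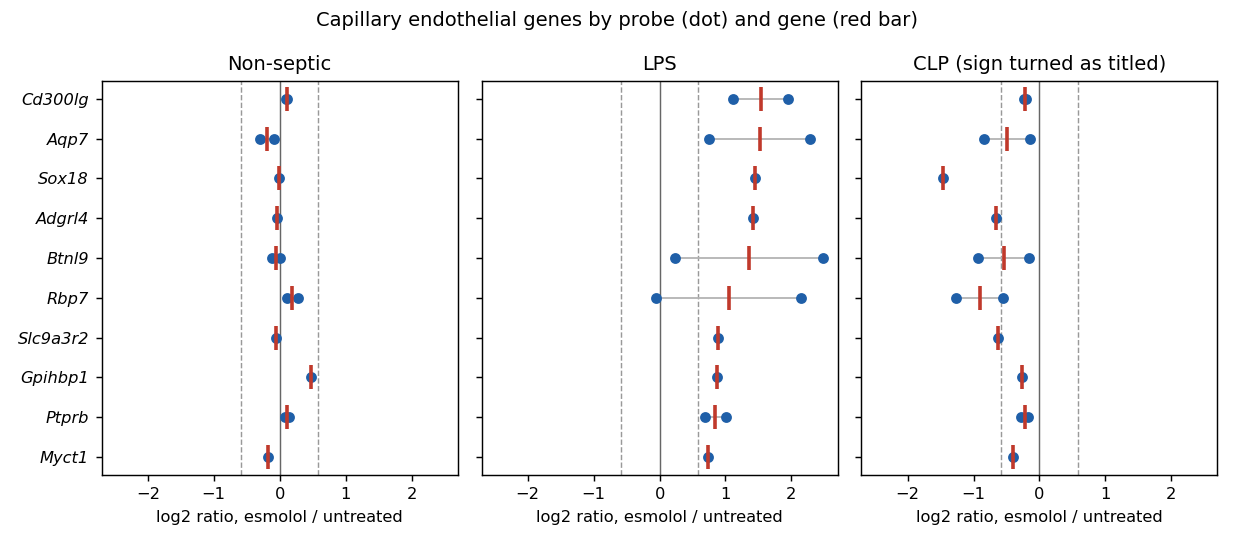
Log2 ratio of esmolol over untreated hearts (horizontal axis) for each of the 10 capillary endothelial genes in non-septic, LPS and CLP hearts, with the CLP sign turned as titled. Dots are probes, grey lines join 2 probes of a gene, red bars are the gene values and dashed lines mark 1.5-fold. All gene values lie right of 0 in LPS hearts, from 0.74 to 1.53, and left of 0 in CLP hearts, from -1.47 to -0.22, and the probes of Rbp7 and Btnl9 lie farthest apart.

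The regions before the starts of these genes are shown because the genes were grouped for moving together, and the rule that grouped them did not use sequence. RefSeq promoter windows of build GRCm38.p6 were held for 6 of the 10 genes, Adgrl4, Rbp7, Btnl9, Aqp7, Slc9a3r2 and Myct1, in 8 windows, and those of Sox18, Cd300lg, Gpihbp1 and Ptprb were not used here. The 250 bases upstream of the start are printed for the 4 genes with a single window, 5′ to 3′ on the strand of the gene. Capitals mark GGAA or its complement TTCC, the core bound by ETS factors, a family with many members in endothelial cells. The windows are chr3:151437632-151437881 (plus strand), chr4:149454969-149455218 (minus), chr11:49187090-49187339 (minus) and chr10:5593478-5593727 (plus).
Adgrl4: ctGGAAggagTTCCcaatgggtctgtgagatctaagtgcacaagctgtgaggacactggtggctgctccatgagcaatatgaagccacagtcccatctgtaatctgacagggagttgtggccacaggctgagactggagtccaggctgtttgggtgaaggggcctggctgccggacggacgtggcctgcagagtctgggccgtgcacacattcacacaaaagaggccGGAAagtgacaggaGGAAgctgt
Rbp7: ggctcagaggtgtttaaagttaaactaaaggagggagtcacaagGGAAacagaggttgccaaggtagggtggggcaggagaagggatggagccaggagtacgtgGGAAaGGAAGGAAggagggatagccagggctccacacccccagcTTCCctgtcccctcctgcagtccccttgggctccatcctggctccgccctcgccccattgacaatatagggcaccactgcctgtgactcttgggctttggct
Btnl9: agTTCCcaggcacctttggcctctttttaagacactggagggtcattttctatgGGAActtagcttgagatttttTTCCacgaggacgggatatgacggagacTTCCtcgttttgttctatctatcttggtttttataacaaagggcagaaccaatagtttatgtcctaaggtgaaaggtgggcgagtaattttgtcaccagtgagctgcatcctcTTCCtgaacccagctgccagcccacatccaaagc
Myct1: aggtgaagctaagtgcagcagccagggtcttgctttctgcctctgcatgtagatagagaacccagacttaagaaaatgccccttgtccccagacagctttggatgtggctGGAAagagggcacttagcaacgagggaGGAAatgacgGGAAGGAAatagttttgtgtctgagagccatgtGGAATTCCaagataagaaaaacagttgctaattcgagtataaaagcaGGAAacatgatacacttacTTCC

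Counted on both strands, the ETS core occurred 4 times in the Adgrl4 window, 5 times in Rbp7, 5 times in Btnl9 and 8 times in Myct1, where the median of all 32851 windows was 3 (quartiles 2 and 4). In the windows not printed it occurred 1 and 4 times for Aqp7 and 6 and 2 times for Slc9a3r2. It was present in all 8 windows of these genes and in 93.4% of all windows. The 2 windows of Aqp7 overlap, and the single core of the first is counted again in the second. The longer form AGGAAG or CTTCCT, which contains that core, was present in 4 of the 8 windows (of Adgrl4, Rbp7, Btnl9 and Slc9a3r2), against 29.5% of all windows. The SOX core ACAAT or ATTGT was found in 1 of 8, that of Rbp7 (27.7% of all windows). The GATA motif AGATAA or TTATCT was found in 3 of 8, of Aqp7, Slc9a3r2 and Myct1 (9.99% of all windows), and TATAAA or TTTATA in 2 of 8, of Btnl9 and Myct1 (12.4%). The partial cAMP response motif TGACG or CGTCA was found in 2 of 8, the same pair as the TATA motif (17.8% of all windows), and the KLF motif CACCC or GGGTG in 5 of 8, of Adgrl4, Rbp7, Aqp7 and Slc9a3r2 (52.0%). The forkhead motif GTAAACA or TGTTTAC (3.17%) and the homeobox motif TAATTA (4.84%) were found in 0 of these windows. GC content ran from 45.6% in Btnl9 and Myct1 to 66.4% in 1 window of Slc9a3r2, around the median of 52.4% of all windows. These letter matches are a description, and no binding was measured.

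Among the 10 genes, Sox18 stood farthest from 0 in CLP hearts. Sox18 encodes a factor of the SOXF group that acts in the development of blood and lymphatic vessels. Its single probe (A_51_P472274) was at 1.44 in LPS hearts (2.72-fold higher), -1.47 in CLP hearts (2.76-fold lower) and -0.0086 in non-septic hearts. It ranked 4 from the highest of 17733 genes in LPS hearts and 1 from the lowest of 17339 in CLP hearts. The other SOXF genes did not share this size. Sox17 was at 0.0084 in LPS and -0.31 in CLP hearts (4 probes), and Sox7 at -0.48 and -0.019 (2 probes).

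Myct1, whose product is a membrane protein enriched in endothelial cells and named as a MYC target, had the smallest LPS ratio of the group. Its probe (A_52_P13389) was at 0.74 in LPS hearts (1.67-fold), -0.40 in CLP hearts and -0.17 in non-septic hearts. It was thus below 1.5-fold in CLP hearts, and in LPS hearts it ranked 152 from the highest of 17733 genes.

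Adgrl4, formerly Eltd1, encodes an adhesion G protein-coupled receptor of vascular cells with a role in vessel sprouting. Its probe (A_51_P480328) was at 1.42 in LPS hearts (2.67-fold higher), -0.66 in CLP hearts (1.58-fold lower) and -0.046 in non-septic hearts. The related latrophilin receptors lay near 0, with Adgrl1 at 0.051 and 0.015, Adgrl2 at -0.058 and 0.0085 and Adgrl3 at 0.28 and 0.098 in LPS and CLP hearts. Of 8 other adhesion receptors, 1 was past 1.5-fold, the leukocyte receptor gene Adgre5 in LPS hearts (0.61), where 2.06% of all genes were higher by as much. The list medians were 0.056 (LPS), 0.012 (CLP) and 0.047 (non-septic).

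Ptprb encodes VE-PTP, a receptor phosphatase that dephosphorylates the angiopoietin receptor TIE2 and associates with VE-cadherin at endothelial junctions. Its probes were at 0.69 and 1.00 in LPS hearts, -0.17 and -0.28 in CLP hearts and 0.075 and 0.14 in non-septic hearts. The gene value in LPS hearts was 0.85 ± 0.22 (SD between probes, n = 2 probes), and both probes were past 1.5-fold there and neither in CLP hearts. None of its 13 listed partner and junction genes was past 1.5-fold in any contrast, and their medians were 0.072 (LPS), -0.044 (CLP) and 0.012 (non-septic). Kdr, the main VEGF receptor, was highest in LPS hearts (0.46) and lowest in CLP hearts (-0.44). The tight junction gene Cldn5 was lowest in LPS hearts (-0.58) and highest in CLP hearts (0.26). Tek, which encodes TIE2, was at 0.035 in LPS hearts with an SD of 1.15 between its probes (n = 2 probes), so its value there rests on disagreeing probes. The 10 other receptor phosphatases held 0 genes past 1.5-fold, with medians of -0.037 (LPS), 0.078 (CLP) and -0.019 (non-septic).

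Slc9a3r2 encodes NHERF2, a PDZ scaffold that ties membrane proteins to the ezrin cytoskeleton. Its probe (A_52_P241676) was at 0.89 in LPS hearts (1.85-fold higher), -0.62 in CLP hearts (1.54-fold lower) and -0.056 in non-septic hearts. Its paralogue Slc9a3r1 had the opposite sign in both, at -0.14 and 0.29. Of the 12 listed NHERF partners, 10 to 11 were measured per contrast and 0 were past 1.5-fold, with medians of 0.016 (LPS), -0.030 (CLP) and 0.0095 (non-septic). Podxl, the endothelial sialomucin podocalyxin that binds this scaffold, was the highest of them in LPS hearts (0.52) and at -0.31 in CLP hearts.

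Gpihbp1 encodes the anchored protein that binds lipoprotein lipase and carries it to the capillary lumen. In non-septic hearts it was the highest of the 10 genes, at 0.47 (1.39-fold), followed by Rbp7 at 0.19, and it ranked 79 from the highest of 17814 genes. Its probe (A_51_P331328) was at 0.87 in LPS hearts (1.82-fold) and -0.26 in CLP hearts. Lpl, the lipase itself, was at -0.042 in LPS and -0.074 in CLP hearts by 1 of its 2 probes, while the other was on a recurring value read as carrying no ratio, as were both in non-septic hearts. Of 16 measured genes in the list of lipolysis and fatty acid transfer, 1 was higher by 1.5-fold in LPS hearts, beside 2.06% of all genes. It was the lipoprotein receptor Vldlr (0.65, and -0.39 in CLP hearts). The medians of that list were 0.084 (LPS), -0.021 (CLP) and 0.0083 (non-septic), and 3, 3 and 4 of its genes had a probe on that recurring value. The non-septic median was itself the recurring value, and was -0.023 without such probes.

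Aqp7 encodes a glycerol and water channel of adipocytes and capillary endothelium. Its probes differed in size but not in sign in the septic hearts, at 0.76 and 2.28 in LPS hearts and -0.14 and -0.84 in CLP hearts, and lay at -0.086 and -0.29 in non-septic hearts. The larger values belonged to probe A_52_P403405 in each case. Of 8 other water channel and glycerol genes, 1 was past 1.5-fold, Gpd1, the glycerol phosphate dehydrogenase gene, in LPS hearts (0.70). There 2.06% of all genes were higher by as much. The list medians were 0.020 (LPS), 0.013 (CLP) and 0.018 (non-septic), and the water channel Aqp1, also of endothelium, was at -0.12, 0.074 and 0.44.

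Rbp7 encodes a cytosolic retinol-binding protein of adipose tissue and endothelium in the mouse. Its probes were at -0.047 and 2.15 in LPS hearts, so the gene value of 1.05 lay between a probe at 0 and one 4.43-fold higher. In CLP hearts they were at -0.55 and -1.26 (gene value -0.90), the lowest value but 1 among 17339 genes. In non-septic hearts they were at 0.11 and 0.28. Of 15 measured retinoid carriers and targets, 0 were past 1.5-fold in any contrast, with medians of 0.012 (LPS), 0.060 (CLP) and 0.066 (non-septic). Cyp26b1, which degrades retinoic acid, was the highest of them in LPS hearts (0.48) and the lowest in CLP hearts (-0.45). At the other ends lay Aldh1a2, which makes retinoic acid, the lowest in LPS hearts (-0.53), and Rbp4, the retinol carrier of plasma, the highest in CLP hearts (0.41).

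The remaining surface proteins were Cd300lg, a mucin-like receptor of capillary endothelium that binds L-selectin, and Btnl9, a butyrophilin-like membrane protein. The Cd300lg probes were at 1.12 and 1.95 in LPS hearts, the highest gene value of the group (1.53 ± 0.59, SD between probes, n = 2 probes). In CLP hearts they were at -0.23 and -0.21, and the gene value of -0.22 was the smallest in size of the 10 gene values. In non-septic hearts they were at 0.096 and 0.11. The Btnl9 probes were at 0.23 and 2.48 in LPS hearts, -0.15 and -0.94 in CLP hearts and 0.011 and -0.12 in non-septic hearts. Its gene values of 1.36 and -0.54 thus lay between probes 1.17-fold and 5.59-fold higher in LPS hearts, and between probes 1.11-fold and 1.91-fold lower in CLP hearts. Relatives of both stayed under 1.5-fold, with medians of 0.14 (LPS), -0.044 (CLP) and -0.027 (non-septic) for 5 measured CD300 genes. For 4 measured butyrophilin relatives the medians were -0.29, -0.070 and -0.034.

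The 5 genes with a pair of probes differed in how well the probes agreed. Over all genes with several probes, the pooled SD within a gene was 0.24 in LPS hearts over 7394 genes, 0.10 in CLP hearts over 7105 genes and 0.11 in non-septic hearts over 7472 genes. In LPS hearts the gap between probes was 2.25 for Btnl9, a width that only 4 of the 7394 genes reached, itself included. It was 2.19 for Rbp7 (reached by 5 genes), 1.53 for Aqp7 (17 genes), 0.84 for Cd300lg (299 genes) and 0.31 for Ptprb (2859 genes). In CLP hearts the gaps were 0.78 for Btnl9 (reached by 13 of 7105 genes), 0.71 for Rbp7 (23 genes) and 0.69 for Aqp7 (25 genes). For Ptprb the gap was 0.10 and for Cd300lg 0.023. In 4 of the 5 genes with a pair, the probe of larger size was the same in LPS and CLP hearts, and this held for 52.4% of the 4664 genes with 2 such probes. At probe level, 13 of 15 were higher by 1.5-fold or more in LPS hearts, where 2.69% of all 34933 probes were. In CLP hearts 6 of 15 were lower by as much, where 0.158% of all 33501 probes were, and these counts too follow from the choice of the genes.

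**Figure D2:**
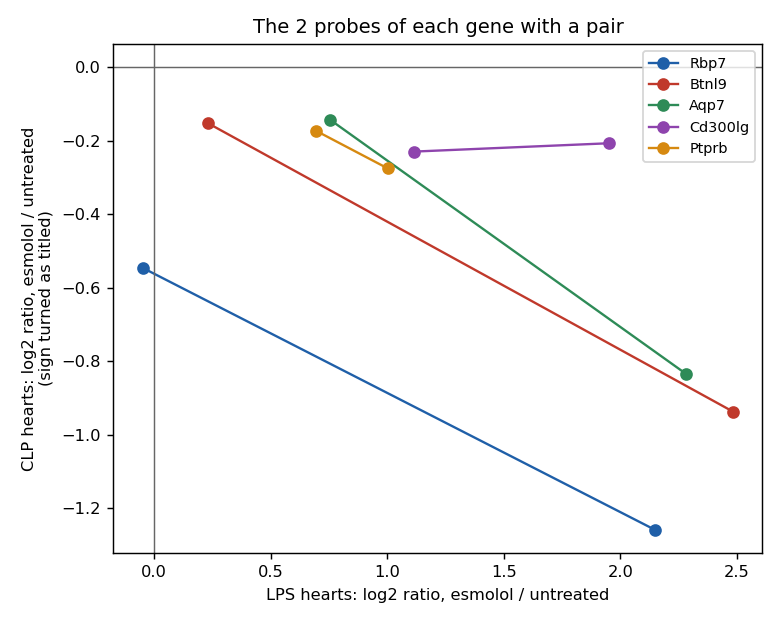
Log2 ratio of esmolol over untreated in LPS hearts (horizontal axis) against CLP hearts (vertical axis, sign turned as titled) for the 2 probes of Rbp7, Btnl9, Aqp7, Cd300lg and Ptprb, with a line joining each pair. For Rbp7, Btnl9, Aqp7 and Ptprb the probe farther right is also farther below 0, while the Cd300lg probes differ in LPS hearts (1.12 and 1.95) and lie together in CLP hearts (-0.23 and -0.21).

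Set against all 17089 genes measured in both septic contrasts, the 10 genes lay at the edge where LPS ratios are high and CLP ratios low. Of all these genes 4647, or 27.2%, were above 0 in LPS and below 0 in CLP hearts, as were 10 of the 10 by their choice. Genes past 1.5-fold on both sides numbered 5, of which 4 belong here (Sox18, Rbp7, Adgrl4 and Slc9a3r2). The other was Retnlg, a neutrophil gene (0.65 and -0.85), which is named because of the small count. Rbp7 was counted by its gene value, and 1 of its 2 probes was under 1.5-fold in both contrasts (-0.047 and -0.55). With the CLP sign as deposited, the same values would place the 10 genes above 0 in both septic contrasts.

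**Figure D3:**
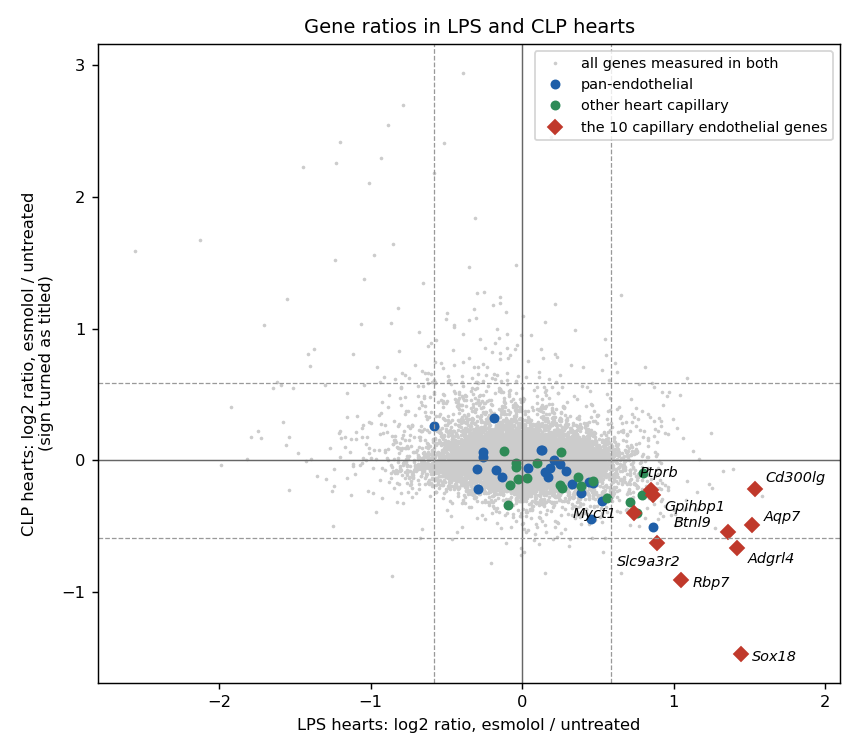
Each point is a gene, with its log2 ratio of esmolol over untreated in LPS hearts (horizontal axis) and CLP hearts (vertical axis, sign turned as titled), and dashed lines mark 1.5-fold. The 10 capillary endothelial genes (red) lie at the lower right, with Sox18 lowest at -1.47. Of the other heart capillary genes (green) 12 of 19 lie right of 0 and below 0, mostly nearer the centre. So do 13 of 24 pan-endothelial genes (blue), while the rest of both lists lie elsewhere around the centre.

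The genes nearest to the median profile of the group over the 3 contrasts included an olfactory receptor and a gene of the outer skin layer (Lce3f). By Euclidean distance among 15943 other named genes, the 6 nearest were Olfr959 (distance 0.17), Aard (0.19), Wdr64 (0.20), Lce3f (0.22), Slc40a1 (0.23) and Tnfrsf4 (0.25), with 1 probe each. Olfr959, an olfactory receptor gene, was at 1.15 in LPS and -0.37 in CLP hearts. Btnl9, at a distance of 0.16, was the 1 member with no other gene nearer. For Sox18, at 0.98, 1213 other genes lay nearer to the median profile. Ratios of this size and pattern thus also occurred at genes of other kinds, and a distance over 3 values does not separate them.

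Other genes of heart capillaries leaned the same way with smaller ratios. Without probes on the recurring value 18 genes were left, of which 13 were above 0 in LPS hearts and 16 below 0 in CLP hearts. Both held for 12 of them (66.7%), beside 27.5% of all genes counted that way. The lean was not particular to capillary genes, with shares of 58.3% for pericyte and smooth muscle, 54.2% for pan-endothelial and 50% for arterial genes. Venous and activated genes had 10%, lymphatic genes 14.3% and endocardial genes 12.5%. With probes on the recurring value kept, 19 other heart capillary genes had a value. Their medians were 0.26 (LPS), -0.16 (CLP) and 0.046 (non-septic), against 1.20, -0.52 and -0.027 for the 10 genes. In LPS hearts 4 of 19 were higher by 1.5-fold, where 2.06% of all genes were. They included Timp4, an inhibitor of metalloproteinases (0.80), and C1qtnf9, an adiponectin relative (0.79). The others were Mgll, which releases glycerol and fatty acids from monoglycerides (0.76), and the surface antigen gene Ly6c1 (0.71). In the order named, these 4 genes were at -0.095, -0.27, -0.40 and -0.31 in CLP hearts, where 0 of 19 were past 1.5-fold in either direction. The fatty acid carriers Cd36 and Fabp4 were at -0.043 and 0.095 in LPS hearts, and both probes of Cd36 were on the recurring value in all contrasts, so its ratio is not known.

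Genes shared by all endothelial cells were closer to 0. Of 24 measured, 16 were above 0 in LPS hearts and 17 below 0 in CLP hearts. Both held for 13 of them, beside 27.2% of all genes. The medians were 0.16 (LPS), -0.073 (CLP) and 0.023 (non-septic). Icam2, an adhesion molecule of resting endothelium, was the 1 gene past 1.5-fold (0.87 in LPS, -0.50 in CLP hearts). In LPS hearts 2.06% of all genes were higher by as much. The junction gene Cdh5, which encodes VE-cadherin, was at -0.26 ± 0.032 in LPS hearts (SD between probes, n = 2 probes) and 0.062 in CLP hearts. Pecam1, a general endothelial marker, was at 0.29 and -0.076. The difference between the 10 genes and these lists was not tested.

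Vessel wall genes of other kinds did not share one direction. Arterial genes had medians of 0.14 (LPS), -0.086 (CLP) and 0.015 (non-septic), with the Notch target Hey1 at 0.63 in LPS hearts and Alpl at 0.59 in CLP hearts. Venous and activated endothelial genes had medians of -0.043 (LPS), 0.33 (CLP) and -0.042 (non-septic). Their LPS median fell on the recurring value, and was -0.15 without such probes. The selectins Sele (-0.88 and 2.54) and Selp (-0.85 and 1.64) and the adhesion molecule Icam1 (-0.82 and 0.83) lay below 0 in LPS hearts and above 0 in CLP hearts, the reverse of the 10 genes in both contrasts. In LPS hearts 3 of 11 venous and activated genes were lower by 1.5-fold or more, where 2.26% of all genes were. In CLP hearts 4 of 11 were higher, Vcam1 (1.07) among them, where 0.819% of all genes were. Lymphatic genes had medians of -0.0026, -0.036 and 0.0043, with Pdpn at 0.63 in CLP hearts, and endocardial genes 0.10, 0.11 and 0.17. Pericyte and smooth muscle genes had medians of 0.13, -0.074 and -0.069, with Notch3, a receptor of mural cells, at 0.76 in LPS hearts. Vascular transcription factors had medians of 0.060, -0.032 and -0.013. Hey1, in LPS hearts, was the 1 of 21 past 1.5-fold, beside 2.06% of all genes higher by as much there. Among the ETS factors, Erg was at 0.48 and 0.034, Fli1 at 0.33 and -0.28 and Elk3 at 0.56 and -0.20 in LPS and CLP hearts. The founding ETS gene Ets1 was at -0.12 and 0.075, and its relative Ets2 at 0.042 in CLP hearts and on the recurring value in LPS hearts.

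**Figure D4:**
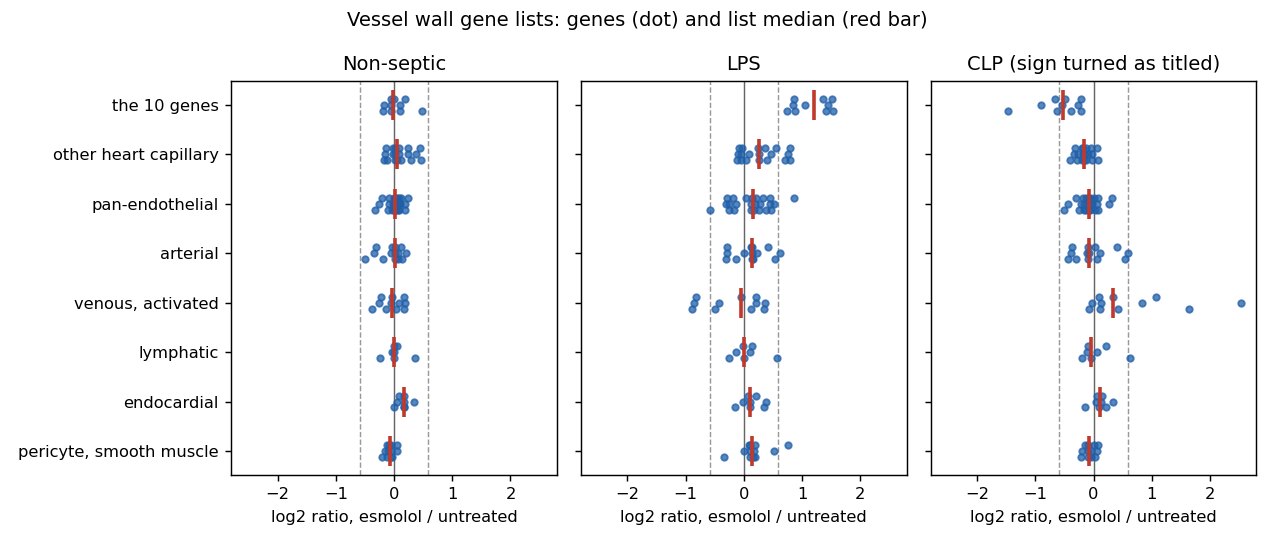
Log2 ratio of esmolol over untreated hearts (horizontal axis) for the 10 capillary endothelial genes and 7 lists of other vessel wall genes in non-septic, LPS and CLP hearts, with the CLP sign turned as titled. Dots are genes, red bars are list medians and dashed lines mark 1.5-fold. The median of the 10 genes is 1.20 in LPS hearts and -0.52 in CLP hearts, while the other medians lie between -0.043 and 0.26 and between -0.16 and 0.33. The LPS median of -0.043, of the venous and activated genes, is the recurring value.

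Markers of other cells also had ratios away from 0 in the same contrasts, and their part in the ratios of the 10 genes was not tested. Atrial markers had medians of -0.79 (LPS), 1.55 (CLP) and 0.41 (non-septic), opposite in sign to the 10 genes in both septic contrasts. In LPS hearts 5 of 9 were lower and in CLP hearts 7 of 9 higher by 1.5-fold, where 2.26% and 0.819% of all genes were. The ranges of the atrial markers were -1.23 to -0.011 and 0.22 to 2.69. Blood cell markers had medians of -0.48 (LPS), 0.0013 (CLP) and -0.12 (non-septic). In LPS hearts 6 of 6 lay below 0, and 3 of 6 were lower by 1.5-fold or more, where 2.26% of all genes were. Among these 3 was the platelet gene Ppbp (-1.81). Macrophage markers had medians of 0.58, 0.24 and 0.10 in the same order of contrasts. By 1.5-fold, 4 of 8 were higher in LPS hearts and 2 of 8 in CLP hearts, beside 2.06% and 0.819% of all genes. Fibroblast markers had medians of -0.059, 0.26 and 0.045, with the collagen gene Col3a1 at 0.81 in LPS and 0.71 in CLP hearts. Ventricular cardiomyocyte markers had medians of -0.043, -0.020 and 0.0083, with 7 of 11 genes holding a probe on the recurring value in each septic contrast. Each of these medians was itself the recurring value of its contrast. Without such probes the medians were -0.052, -0.067 and 0.018. Of these markers Tnnt2 was past 1.5-fold in LPS hearts (0.62, with an SD of 0.94 between its 2 probes). Adipocyte markers, of interest because Aqp7 and Rbp7 are also adipocyte genes, had medians of -0.12, 0.033 and 0.0057. The brown fat gene Ucp1 was at -0.52 in LPS and 2.40 in CLP hearts and the fat hormone gene Adipoq at -0.18 and 0.89. Of the 11 adipocyte genes, 4 were above 0 in LPS and below 0 in CLP hearts, beside 27.2% of all genes. Among the 4 were the lipase genes Lipe (0.47 and -0.20) and Pnpla2 (0.087 and -0.14) and the lipid droplet gene Cidea (0.24 and -0.23).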

How the data were processed

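Each of the 3 samples is a contrast of mouse hearts on 2-colour arrays, from total RNA of 30 mg of tissue. Per the labels, each deposited value merges 4 replicates with dye swaps. The scanner, the background correction, the normalization, any filter and the log base were not given in the sources used here. Reading the deposited values as log2 ratios is an assumption. The deposited column medians were 0.0044 (non-septic), 0.0083 (LPS) and 0.0072 (CLP, before turning its sign). One exact value recurred at 359, 526 and 538 of 41174 probes, many for abundant heart transcripts. It was read as carrying no ratio, and 0 of the 15 probes of the 10 genes were on it. The number of arrays limits the precision, and it is not stated if the 4 replicates were separate animals.

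Genes were named from the platform annotation, with symbols updated by gene ID from RefSeq (GRCm38.p6) for 32524 of 32664 single-gene probes. Another 45 probes with several genes were left out, and 8465 were unnamed here. Probes were collapsed by their median with Python 3.11.15 and pandas 2.3.3, a step tested on simulated data. Counts used 1.5-fold, with no test, since each contrast has 1 value. The members and the 23 other lists were chosen with earlier results of these data known, and members were kept out of other lists. Named genes are the 10 members, the largest past 1.5-fold in each list (at most 4 a side, else the highest and lowest) and the 6 genes nearest to the members' median profile. Some genes that this rule picks, such as the atrial and macrophage ones, were left unnamed in the text. Relatives and partners named beyond that rule (such as Sox7, Sox17, Cdh5, Pecam1, Tek, Lpl, Cd36, the ETS factors and some adipocyte genes) were chosen for their roles after values were seen, as were the motifs. Alternatives were other ways of collapsing probes, the recurring value left out, centring, the CLP sign, the fold threshold, the base of the logarithm and fewer members or genes.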

Additional observations from a re-analysis of the deposited data

Results flagged for a closer look

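Of the 10 capillary endothelial genes, 3 had every probe past 1.5-fold above 0 in LPS hearts and past 1.5-fold below 0 in CLP hearts, with the CLP sign turned as titled. The LPS ratio minus the CLP ratio was 2.91 for Sox18 (1.44 and -1.47), 2.08 for Adgrl4 (1.42 and -0.66) and 1.51 for Slc9a3r2 (0.89 and -0.62), on the log2 scale. Each has a single probe and 1 merged value per contrast, so the difference between the contrasts was not tested. The genes were chosen for these ratios, and the opposite signs rest on the title of the CLP sample.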

How the results depend on the processing

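With the CLP sign as deposited, the CLP ratios were 1.47 for Sox18, 0.66 for Adgrl4, 0.90 for Rbp7 and 0.62 for Slc9a3r2, and 4 of the 10 genes were higher and 0 lower by 1.5-fold. The CLP medians then became 0.52 for the 10 genes, 0.073 for pan-endothelial, 0.16 for other heart capillary and -1.55 for atrial genes. These turns follow from the sign alone. Taking the probe of largest size moved the CLP median of the 10 genes to -0.64, and 6 were then lower by 1.5-fold in CLP hearts. At 2-fold, 6 were higher in LPS hearts and 1 lower in CLP hearts. If the deposited values are natural logs, 1 was higher in non-septic hearts and 6 were lower in CLP hearts. If they are log10, 2 were higher and 1 lower in non-septic hearts, and 10 were lower in CLP hearts. Of 50 recounts of the 10 genes, 42 stayed within 1.5 times the reported count, and of 19 recomputed medians 17 moved by less than the pooled SD between probes. Among 437 recomputed list medians, 419 did so, and among 130 values of single members, 113. Some of these outcomes were fixed in advance for the 10 genes. With at most 2 probes per gene, the mean and the median of the probes coincide. A gene with 1 probe keeps its value however probes are collapsed, and 0 of the 15 probes were on the recurring value. The tallies are therefore no measure of stability. Leaving out a replicate was not run, since replicates were merged before deposit. No paired analysis was possible because each contrast holds 1 merged value. Signal over background is not in the ratios, so which probes were dim is unknown.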

Other observations

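In non-septic hearts, Gpihbp1 (0.47) was not the only capillary gene with a ratio above most of the array. Among the other heart capillary genes, Rgcc, a cell cycle regulator of endothelium, was at 0.46, the water channel gene Aqp1 at 0.44, Ly6c1 at 0.38 and Car4, the carbonic anhydrase of the capillary lumen, at 0.29. These genes were named after their values were seen. Their ratios in LPS hearts ran from -0.12 (Aqp1) to 0.71 (Ly6c1), and the other 9 of the 10 genes lay between -0.19 and 0.19 in non-septic hearts. The list of 19 had a median of 0.046 in these hearts and 6 of its genes lay below 0, the lowest being Slc28a2, a nucleoside carrier gene (-0.17). No list gene of the heart capillary group was past 1.5-fold there.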
